A study of Daucus carota with 18 samples.

Results

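The genes described here were low in the outer phloem of purple carrot roots and higher in the inner phloem of the same roots, in each of 3 sets of roots. They were chosen on these libraries by level alone. A gene entered if its mean in the non-purple inner phloem (NPIP) was at least 4 counts per 1000000 (CPM, from the expected counts and the library total) and its mean in the purple outer phloem (POP) was at most 1/3 of that, in every set. Genes that the study names in its text or gene tables, and those with IDs from DCAR_009117 to DCAR_009201 and from DCAR_010446 to DCAR_010874, were left out. This gave 78 of the 32113 annotated genes. Another 12 genes met both limits but are named by the study. None of the 78 has a description in the sources used here, and 0 of the 78 IDs were found in the RefSeq gene table, so they are called by their IDs, and their roles, positions and sequences are not given.

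RNA-seq libraries were made from POP and NPIP dissected from field-grown roots of Daucus carota, with 3 roots per set and 1 library per tissue and root, 18 libraries in all. The set dP2 had dark purple roots with a high anthocyanin concentration in the outer phloem and a purple xylem, the set dP1 had dark purple roots with a high concentration and a non-purple xylem, and the set pP had pale purple roots with a low concentration and a non-purple xylem. The inner phloem was non-purple in all 3 sets. The roots came from 2 sibling families of 1 F2 population. The plants of dP2 were of one family, grown in Wisconsin, and those of dP1 and pP of the other, grown in California. Family, site, xylem colour and set therefore cannot be told apart in any comparison of dP2 with dP1 or pP.

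The phloem carries sugars and signals through sieve elements, which live on their companion cells. In a carrot storage root the cambium adds new phloem on its outer side, so the inner phloem lies next to the cambium and the outer phloem lies towards the periderm, with more storage parenchyma between its conducting strands. In Arabidopsis the MYB factor APL (ALTERED PHLOEM DEVELOPMENT) is needed for phloem identity, KNAT7 is a regulator of secondary walls, and IRX15-LIKE acts in the synthesis of xylan. In RNA from whole tissue pieces, fewer cells of a type and less RNA per cell cannot be told apart.

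Library totals ranged from 6918267 to 9133313 expected counts. The study took both tissues from each root, but the sources used here do not tie a replicate number to a root. The deviations of same-numbered POP and NPIP libraries from the group means went together in dP2 (r of 0.31 to 0.55) and dP1 (r of 0.34 to 0.44), so the numbers were taken as roots there, but in pP replicates 1 and 3 gave r of −0.24 and −0.09, and POP replicate 1 went with NPIP replicate 3 (r = 0.60) and POP replicate 3 with NPIP replicate 1 (r = 0.43). Statements on single pP roots are therefore not made. The NPIP library of dP1 replicate 3 and both libraries of pP replicate 2 held the highest level of their group for many of the 78 genes. The counts and sums they move most are also given without them. Low for many of the genes were pP POP replicate 1 and dP2 NPIP replicate 3. Their median log2 ratios to the group mean were −0.67 and −0.54. Sums without those low libraries are not given. Of the markers, which are all from the study's own tables of genes that differ between these tissues, the 3 APL homologs summed to 5.53 to 11.5 CPM in POP of dP2, against 57.9 to 88.3 CPM in NPIP of dP2. They summed to 1.12 to 3.95 CPM in POP of dP1, against 19.1 to 29.1 CPM in NPIP of dP1, and to 0.516 to 3.61 CPM in POP of pP, against 12.4 to 14.3 CPM in NPIP of pP. KNAT7 and IRX15-LIKE summed to 27.2 to 40.5 CPM in POP of dP2, against 5.22 to 7.31 CPM in NPIP of dP2, and this sum was also higher in every POP library than in every NPIP library of dP1 and of pP. Since the markers were chosen on these libraries, their levels are no independent check of the tissue labels, and no marker of the periderm or the cambium was at hand. The part of the mix of cells in the ratios below was not tested.

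Over the 78 genes, the level left in POP was a small share of that in NPIP. The median was 14.7% of the NPIP mean in dP2, 10.6% in dP1 and 16.0% in pP, and the ratio in the 3 sets was what chose the genes, so it is given with no test. POP held at most 20% of the NPIP level in 51 genes in dP2, 59 in dP1 and 54 in pP, and in all 3 sets in 36 genes. It held at most 10% in all 3 sets in 7 genes. The largest of the 3 ratios was in dP2 for 36 genes, in pP for 25 and in dP1 for 17. Each POP library lay below each NPIP library of its set in 72 genes in dP2, 75 in dP1 and 66 in pP, where over all genes tested 21.3%, 20.9% and 13.0% did so. The groups were apart in all 3 sets in 58 genes, against 3.34% of all genes tested, and the other 20 overlapped in at least 1 set. These shares follow from the choice of the genes.

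**Figure D1:**
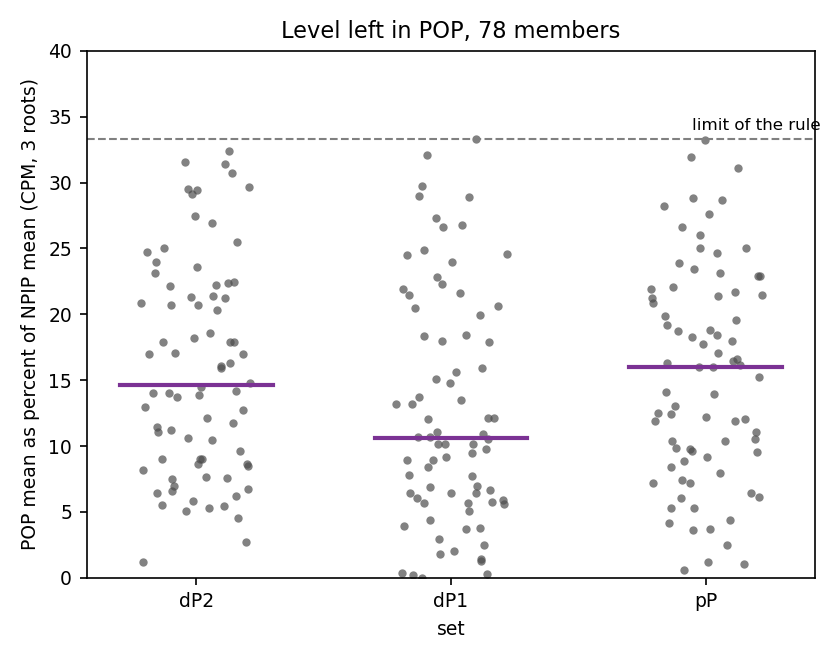
Mean CPM in POP as a percent of the mean CPM in NPIP for the 78 genes in dP2, dP1 and pP, 1 point per gene, with the median as a bar and the limit of the rule as a dashed line. The medians are 14.7%, 10.6% and 16.0%.

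Together the genes made up 0.163% to 0.238% of the counts of a POP library of dP2, against 0.846% to 1.47% of an NPIP library of dP2. The shares were 0.0844% to 0.116% in POP and 0.617% to 1.29% in NPIP of dP1, and 0.0555% to 0.119% in POP and 0.425% to 0.717% in NPIP of pP. A few genes carried most of this sum. DCAR_004198 alone gave 19.0% of the summed NPIP level in CPM, and the 5 highest gave 55.2%. Per length, on the authors' TPM scale (transcripts per 1000000, which takes length into account), the median NPIP level was 29.7 TPM, against 14.2 TPM over all genes tested. This difference follows in part from the limit of 4 CPM in NPIP of every set, since genes tested needed only 1 CPM in at least 3 libraries. Of the 78 genes, 18 were above 100 TPM.

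**Figure D2:**
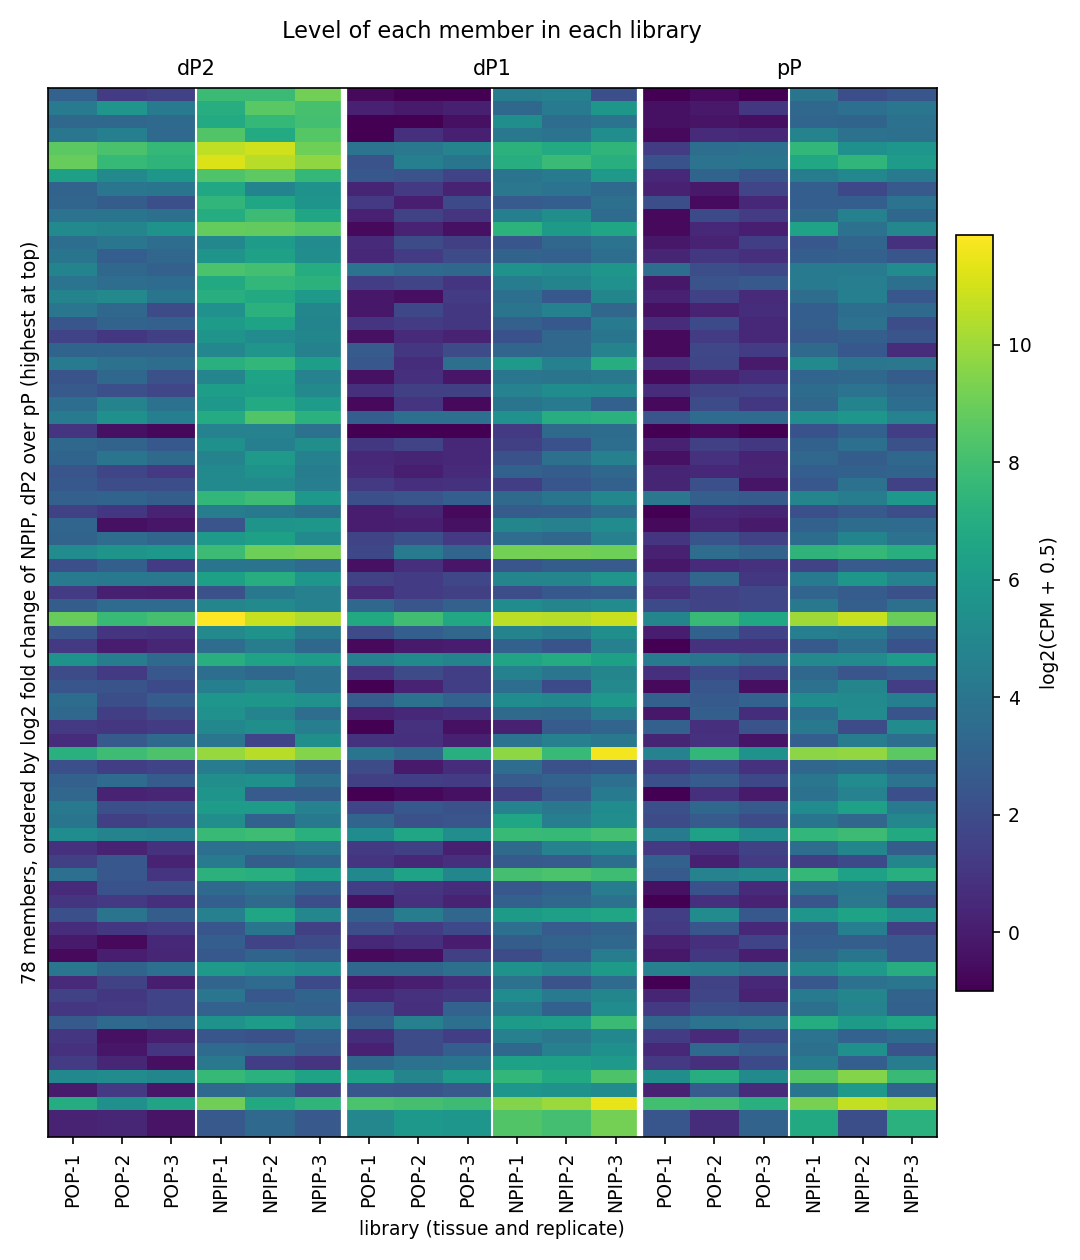
Level of the 78 genes in the 18 libraries as log2(CPM + 0.5), with genes in rows ordered by the difference of NPIP between dP2 and pP and libraries in columns, POP left of NPIP in each set. NPIP columns are brighter than POP columns in every set, and the upper rows are brightest in NPIP of dP2. The lowest rows, DCAR_001112 and DCAR_001113, have low levels in both tissues of dP2. DCAR_005387 and DCAR_025839, also near the bottom, are not dark in dP2, with NPIP means of 273 and 144 CPM.

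The highest NPIP levels were 2123 TPM for DCAR_005972, 1656 TPM for DCAR_004198 and 1309 TPM for DCAR_004910, as means of 9 NPIP libraries. DCAR_004198 had 467, 202 and 272 CPM in POP of dP2, against 3774, 1767 and 1314 CPM in NPIP of dP2. It had 112, 243 and 101 CPM in POP of dP1, against 1560.4, 1451 and 1816 CPM in NPIP of dP1. In pP it had 28.8, 209 and 107 CPM in POP, against 1046, 1764 and 513 CPM in NPIP. The groups did not overlap in any set, and POP kept a share of the NPIP mean of 13.7% in dP2, 9.45% in dP1 and 10.4% in pP. DCAR_031159, with 863 TPM in NPIP, had a lower share in POP of dP1 and pP. It had 36.6, 50.7 and 57.5 CPM in POP of dP2, against 224, 534 and 600.3 CPM in NPIP of dP2. It had 2.99, 19.4 and 8.82 CPM in POP of dP1, against 590.3, 586 and 517 CPM in NPIP of dP1, and 0.645, 11.7 and 8.21 CPM in POP of pP, against 163, 192 and 140.1 CPM in NPIP of pP. POP kept 10.6% in dP2, 1.84% in dP1 and 4.15% in pP. DCAR_006816, with 598 TPM, spread widely among roots. It had 145, 237 and 313 CPM in POP of dP2, against 967, 1457 and 711 CPM in NPIP of dP2. It had 15.6, 9.44 and 133 CPM in POP of dP1, against 827, 203 and 3219.7 CPM in NPIP of dP1, where replicate 3 was far above the other 2 libraries. In pP it had 25.3, 182 and 46.2 CPM in POP, against 795, 883 and 398 CPM in NPIP. POP and NPIP did not overlap within a set for this gene either.

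The strongest reductions in all 3 sets were those of DCAR_003790, DCAR_003234, DCAR_003787, DCAR_022449, DCAR_031387, DCAR_027667, DCAR_003788 and DCAR_031159. For DCAR_003790, POP kept 1.21% in dP2, 0.249% in dP1 and 0.604% in pP. It had 7.71, 1.89 and 2.42 CPM in POP of dP2, against 218, 216 and 558 CPM in NPIP of dP2. In dP1 a single read was counted in its 3 POP libraries, against 417 reads in the 3 NPIP libraries. From these pooled reads, and not from the mean CPM as in the shares above, the level was 423-fold lower. The exact 95% interval of 75.6 to 16761 covers counting error only. In pP it was again 1 read, against 204 reads, by pooled reads 189-fold lower with an interval of 33.6 to 7509. DCAR_003234 had no read in any POP library of dP1, against 1.75, 10.6 and 11.4 CPM in NPIP of dP1. Set against a floor of 3 reads over the group, that is at least 67.7-fold lower in POP. It had 1.40, 0.236 and 0.115 CPM in POP of dP2, against 25.8, 25.8 and 13.3 CPM in NPIP of dP2, and 1 read in the POP libraries of pP, against 119 reads in NPIP. No other gene of the 78 lacked reads in all POP libraries of a set.

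DCAR_022449 kept 6.23% in dP2, 2.53% in dP1 and 3.74% in pP, and its POP libraries all lay below its NPIP libraries. DCAR_031387, at 13.9 TPM in NPIP a gene of modest level, kept 7.67% in dP2, 8.45% in dP1 and 8.43% in pP, nearly the same share in each set. DCAR_027667 kept 8.51% in dP2, 1.45% in dP1 and 4.37% in pP, and its groups overlapped in dP2. It had 8.76, 0.236 and 0.346 CPM in POP of dP2, against 4.79, 49.8 and 55.2 CPM in NPIP of dP2, with replicate 1 the highest in POP and the lowest in NPIP.

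Genes lay close to the limits of the rule on both sides. The 3 genes just inside the ratio were DCAR_020413, DCAR_004335 and DCAR_008248, with largest ratios of 32.1%, 32.4% and 33.3%. The 3 just outside were DCAR_025251, DCAR_010108 and DCAR_020610, with 33.8%, 34.1% and 34.3%. At the limit on level, DCAR_003778 and DCAR_021573 were just inside with lowest NPIP means of 4.27 and 4.35 CPM, and DCAR_006573 and DCAR_019793 just outside with 3.80 and 3.73 CPM.

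The level in NPIP was then compared between sets. Differences between sets in NPIP were not a term of the rule, but the NPIP level of each set was. It had to reach 4 CPM and was the base of the ratio. A high NPIP level in a set helped a gene enter, so the counts of calls follow in part from the choice. All genes tested needed only 1 CPM in at least 3 libraries, so the shares over them are no matched reference. In dP2, 36 of the 78 genes were higher than in pP and 4 were lower (edgeR's quasi-likelihood test, FDR under 0.05). Over all 20253 genes tested, 18.9% were called higher and 16.3% lower in that comparison. Against dP1, 30 genes were higher in dP2 and 8 were lower, where 22.4% of all genes were called higher and 18.9% lower. The median log2 fold change of the 78 genes was 1.12 for dP2 over pP, against 0.03 over all genes, and 0.89 for dP2 over dP1, against 0.07 over all genes. NPIP libraries of dP2 lay wholly above those of pP in 37 genes, a pattern found in 23.6% of all genes tested, and wholly above those of dP1 in 33 genes, found in 28.6%. The 2 comparisons share the dP2 libraries.

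Sorted by these calls, 27 genes were higher in NPIP of dP2 than in both other sets, against 14.7% of all genes tested. A further 9 were higher than in pP alone and 3 than in dP1 alone. Lower in NPIP of dP2 than in at least 1 other set were 9 genes, among them DCAR_001112 and DCAR_001113, which have identical counts. No difference between sets was called for 29 genes. The remaining gene, DCAR_019233, differed between dP1 and pP. Apart from the 27, the shares of all genes in these groups were not taken, so those counts only describe the sorting. Several markers differed in the same comparisons. In NPIP of dP2 over pP the log2 fold changes of the 3 APL homologs were 2.46 ± 0.60 (FDR = 0.00602) for DCAR_009660, 2.39 ± 0.43 (FDR = 0.000708) for DCAR_019886 and 2.22 ± 0.61 (FDR = 0.0110) for DCAR_019908. KNAT7 (DCAR_008430), higher in POP than in NPIP of every set, was also higher there, with 2.34 ± 0.53 (FDR = 0.00376), while IRX15-LIKE (DCAR_010869) was not called (1.56 ± 0.75, FDR = 0.118). In NPIP of dP2 over dP1, DCAR_009660 (1.93 ± 0.59, FDR = 0.0175) and DCAR_019886 (1.33 ± 0.41, FDR = 0.0185) were called higher and DCAR_019908 was not (0.93 ± 0.58, FDR = 0.213). KNAT7 (DCAR_008430; 1.55 ± 0.51, FDR = 0.0242) and IRX15-LIKE (DCAR_010869; 4.98 ± 1.06, FDR = 0.00195) were called higher there. IRX15-LIKE had only 2 reads in the NPIP libraries of dP1, against 81 reads in those of dP2, so the size of its change is poorly known. The part of the cell mix in the calls was not tested.

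**Figure D3:**
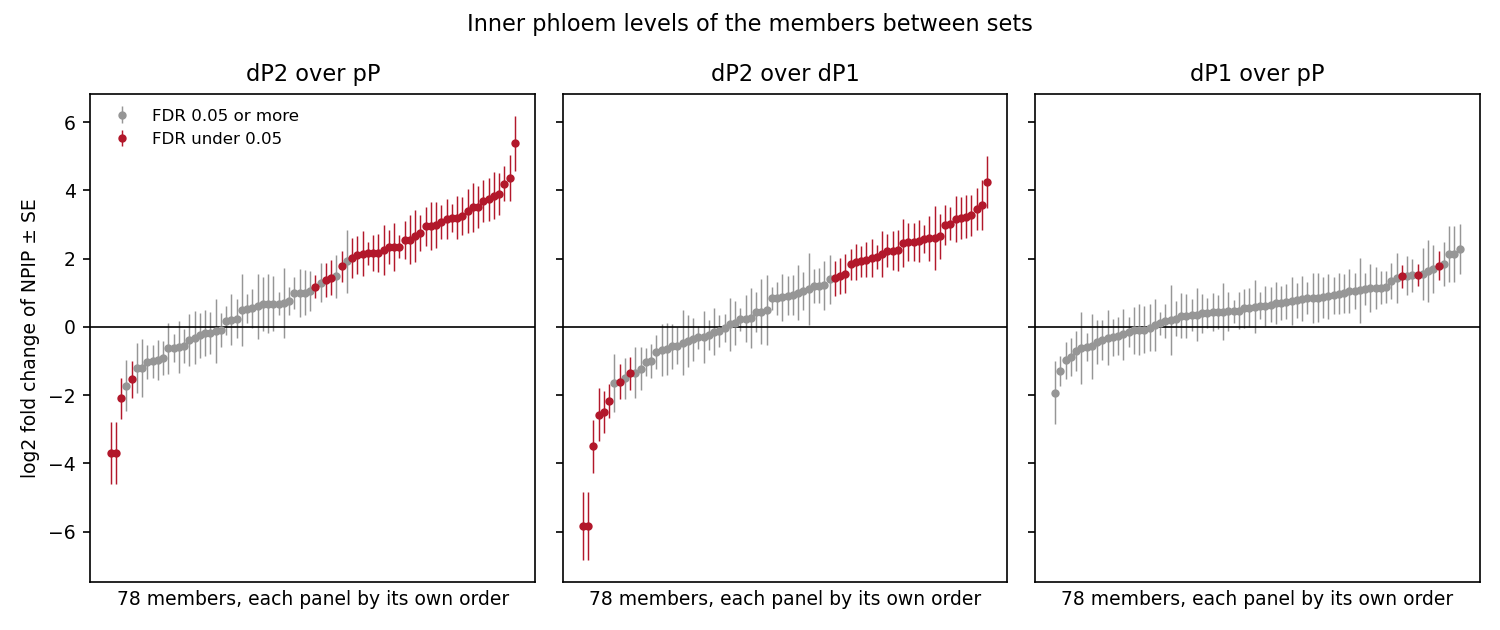
Log2 fold change of NPIP between sets with its standard error for the 78 genes, each panel sorted by its own values, with genes of FDR under 0.05 in red. For dP2 over pP, 36 genes are called higher and 4 lower, for dP2 over dP1 30 and 8, and for dP1 over pP 3 and 0.

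The widest increase in NPIP of dP2 was that of DCAR_003790, with 218, 216 and 558 CPM in NPIP of dP2, against 21.4, 24.7 and 3.87 CPM in NPIP of dP1 and 15.3, 3.77 and 4.87 CPM in NPIP of pP. All dP2 values lay above all others, and the log2 fold change was 5.38 ± 0.81 over pP (FDR = 0.000201). DCAR_003787 had 117, 191 and 262 CPM in NPIP of dP2, against 41.7, 11.6 and 14.3 CPM in NPIP of dP1 and 8.82, 8.35 and 14 CPM in NPIP of pP. Its log2 fold change was 3.02 ± 0.48 over dP1 (FDR = 0.000251) and 4.19 ± 0.51 over pP (FDR = 4.45e-05). DCAR_021471 had 49.7, 83.4 and 39.5 CPM in NPIP of dP2, against 8.13, 7.63 and 12.2 CPM in NPIP of dP1 and 6.70, 7.32 and 4.99 CPM in NPIP of pP. Again no library of dP2 overlapped the others, with 2.57 ± 0.40 over dP1 (FDR = 0.000216) and 3.18 ± 0.42 over pP (FDR = 7.48e-05). DCAR_022449 had 331, 116 and 357 CPM in NPIP of dP2, against 17.6, 14.7 and 39.7 CPM in NPIP of dP1, a log2 fold change of 3.44 ± 0.61 (FDR = 0.000553). DCAR_004003 had 33.8, 47.7 and 20.6 CPM in NPIP of dP2, against 7.63, 6.48 and 9.56 CPM in NPIP of dP1, and rose by 2.05 ± 0.35 (FDR = 0.000388).

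Among the genes of highest level, DCAR_005972 and DCAR_004910 followed the same course. DCAR_005972 had 2361, 1457 and 852 CPM in NPIP of dP2, against 129, 223 and 135 CPM in NPIP of dP1 and 104, 179.8 and 68.1 CPM in NPIP of pP. DCAR_004910 had 1597, 2010.0 and 528 CPM in NPIP of dP2, against 155, 115 and 172 CPM in NPIP of dP1 and 184, 43.9 and 54.2 CPM in NPIP of pP. Their log2 fold changes over pP were 3.74 ± 0.63 (FDR = 0.000487) and 3.85 ± 0.69 (FDR = 0.000681). DCAR_023524, the shortest coding sequence of the 78 with 228 bases, had 179, 96.0 and 50.8 CPM in NPIP of dP2, against 6.0, 6.82 and 13.2 CPM in NPIP of dP1 and 6.70, 6.75 and 14.5 CPM in NPIP of pP. All values of dP2 were above those of the other sets, and it rose by 3.50 ± 0.73 over pP (FDR = 0.00205). DCAR_009780 was higher in dP2 than in pP by 2.35 ± 0.34 (FDR = 0.000161), with 71.9, 77.6 and 33.0 CPM in NPIP of dP2, against 11.3, 14.8 and 9.62 CPM in NPIP of pP.

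Higher NPIP levels in dP2 went with higher POP levels in dP2, in these genes as over all genes tested. Of the 27 genes higher in NPIP of dP2 than in both other sets, 26 also had a higher POP mean in dP2 than in dP1 and pP, a comparison of means with no test. Over all genes tested that were higher in NPIP of dP2 than in both other sets, 89.9% did so, and over all genes tested 39.4% did. The same held for 53 of the 78 genes and for 15 of the 29 with no call between sets. The median POP mean of these 27 genes was 11.2 CPM in dP2, against 1.47 CPM in dP1 and 1.31 CPM in pP. In 12 of the 78 genes the POP mean of dP2 was above the NPIP mean of pP, and in 9 it was above the NPIP mean of dP1. The shares of all genes with these patterns were not taken, so the counts are not read as a trait of the 78 genes. DCAR_004910 is such a gene, with 398, 293 and 189.8 CPM in POP of dP2, against 184, 43.9 and 54.2 CPM in NPIP of pP. Within dP2 its POP kept 21.3% of the NPIP mean.

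**Figure D4:**
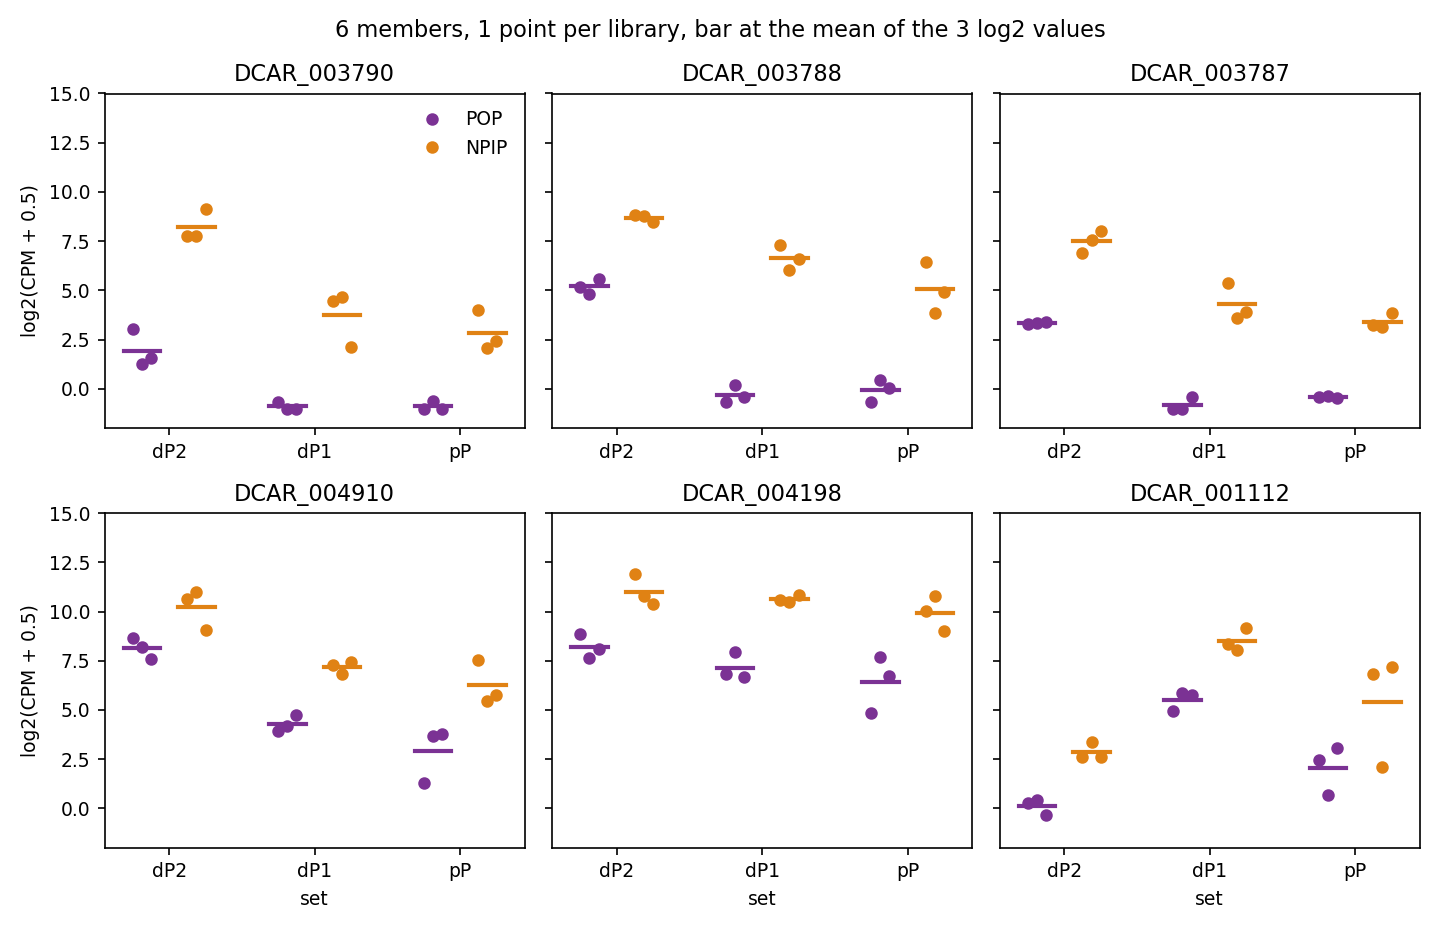
Level of 6 of the genes as log2(CPM + 0.5), 1 point per library with a bar at the mean of the 3 log2 values, POP left of NPIP in each of dP2, dP1 and pP. DCAR_003790, DCAR_003788, DCAR_003787 and DCAR_004910 are highest in NPIP of dP2, DCAR_004198 has no call between sets, and DCAR_001112 has its lowest means in dP2.

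A smaller group went the other way. DCAR_001112 and DCAR_001113 had the same expected count in all 18 libraries, and both have a coding length of 729 bases, so they cannot be told apart in these counts and stand for 1 measurement, which makes 77 distinct profiles among the 78 genes. Each had 5.63, 9.93 and 5.52 CPM in NPIP of dP2, against 329, 262 and 579 CPM in NPIP of dP1 and 115, 3.77 and 147 CPM in NPIP of pP. Both fell by 5.83 ± 0.99 on the log2 scale in dP2 over dP1 (FDR = 0.000393). In dP2 over pP they fell by 3.69 ± 0.91 (FDR = 0.00597), although replicate 2 of pP lay below every library of dP2, and the FDR was 0.0518 in a fit of the 6 NPIP libraries of these sets alone. In pP, replicate 2 also made POP and NPIP overlap for this pair, with 5.03, 1.08 and 7.94 CPM in POP of pP. DCAR_017964 had 17.2, 2.16 and 1.46 CPM in NPIP of dP2, against 81.7, 76.7 and 61.6 CPM in NPIP of dP1, and fell by 3.50 ± 0.78 (FDR = 0.00256). DCAR_017771 had 5.03, 4.09 and 7.32 CPM in NPIP of dP2, against 24.3, 16.5 and 31.3 CPM in NPIP of dP1, and fell by 2.17 ± 0.51 (FDR = 0.00365). The dP2 and dP1 libraries were apart for all 4 genes.

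Over pP, the other 2 genes called lower in dP2 were DCAR_005387 and DCAR_025839. DCAR_005387, with a coding length of 4773 bases, had 535, 111 and 173 CPM in NPIP of dP2, against 594, 1646 and 1227 CPM in NPIP of pP, and its log2 fold change was −2.10 ± 0.60 (FDR = 0.0137). DCAR_025839 had 199, 148 and 86.1 CPM in NPIP of dP2, against 341, 721 and 208 CPM in NPIP of pP, and its log2 fold change was −1.54 ± 0.55 (FDR = 0.0399). Neither call held without each library. The FDR of DCAR_005387 was 0.0510 to 0.0561 without dP2 NPIP replicate 2 or 3, and that of DCAR_025839 was 0.0576 to 0.191 without dP2 NPIP replicate 2 or 3 or without pP NPIP replicate 1 or 2. The count of 4 genes lower in dP2 than in pP was 2 without dP2 NPIP replicate 2 and 2 without replicate 3, where the identical pair counts as 2 genes. The count of 8 genes lower than in dP1 was 5 without dP2 NPIP replicate 3.

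Between the 2 sets of 1 family and site, few genes were called, among the 78 and over all genes tested. In NPIP of dP1, 3 genes were called higher than in pP, where 2.08% of all genes tested were, and 0 were called lower, where 2.49% of all genes were. At an unadjusted p under 0.05, 14 were higher and 1 was lower, together 19.2% of the 78 genes, against 20.5% of all genes. DESeq2 called 6 higher and 0 lower, where it called 9.99% of all genes in either direction. NPIP libraries of dP1 lay wholly above those of pP in 16 genes, a pattern found in 10.8% of all genes tested. They lay wholly below in 1 gene, found in 13.9%. The median log2 fold change of the 78 genes was 0.60, against 0.00 over all genes, and 59 of the 78 values were above 0. The median was 0.28 with 47 values above 0 without dP1 NPIP replicate 3, and 0.93 with 67 above 0 without pP NPIP replicate 2. DCAR_009780 had 26.1, 37.9 and 33.7 CPM in NPIP of dP1, against 11.3, 14.8 and 9.62 CPM in NPIP of pP (log2 fold change 1.52 ± 0.33, FDR = 0.0209). DCAR_004335 had 38.4, 28.4 and 36.4 CPM in NPIP of dP1, against 17.8, 6.98 and 13.2 CPM in NPIP of pP (1.48 ± 0.34, FDR = 0.0259). DCAR_019233 had 25.1, 16.0 and 28.5 CPM in NPIP of dP1, against 9.29, 4.69 and 6.65 CPM in NPIP of pP (1.79 ± 0.42, FDR = 0.0279). The dP1 libraries lay above the pP libraries for all 3 genes. Each call was lost when any 1 of 4 libraries was left out, and the count of 3 was 0 without dP1 NPIP replicate 3, 0 without pP NPIP replicate 3, 1 without dP1 NPIP replicate 1 and 1 without pP NPIP replicate 2. In a fit of the compared groups alone, the calls of DCAR_004335 (FDR = 0.104) and DCAR_019233 (FDR = 0.0655) were lost, and 1 of the 3 genes called there was also called with all 18 libraries.

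The POP over NPIP effect was also compared between sets, as the effect of one set minus that of another. A gene called higher kept a larger share of its NPIP level in POP of the first set. Its reduction was thus weaker in that set, and that of a gene called lower was stronger. The rule bounded this effect in each set, so the number of calls follows in part from the choice of the genes. For dP1 minus pP no gene of the 78 was called, where 0.0148% of all genes were called higher and 0.0% lower. At an unadjusted p under 0.05, 0 were higher and 2 lower, together 2.56%, against 4.48% of all genes, and DESeq2 called 0 in each direction, where it called 0.173% of all genes. For dP2 minus pP the count was also 0, where 0.751% of all genes were called higher and 0.356% lower. At an unadjusted p under 0.05, 3 were higher and 4 lower, together 8.97%, against 14.2% of all genes, and DESeq2 called 1 higher, where it called 4.2% of all genes. Without pP NPIP replicate 2, 1 gene was called higher. With the replicate number as a block and numbers 1 and 3 of pP POP exchanged, a pairing added after seeing the data, 2 were called higher and 2 lower, and with the numbers as labelled 0 in each direction. For dP2 minus dP1, 1 gene was called higher and 0 lower, where 1.17% and 1.25% of all genes were. At an unadjusted p under 0.05, 11 were higher and 3 lower, together 17.9%, against 19.1% of all genes, and DESeq2 called 3 higher and 1 lower, where it called 7.34% of all genes. With the replicate number as a block, 3 genes were called higher and 0 lower in that last comparison, and 7 higher and 2 lower with the exchanged numbers. Without dP1 POP replicate 2 or dP1 NPIP replicate 2 the count was 2. For the fits with a block, shares over all genes are not given here. The counts with a block are therefore not read as a trait of the 78 genes.

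The 1 gene was DCAR_003788, which was below 1 CPM in each POP library of dP1 and pP and well above it in dP2. It had 35.9, 28.1 and 47.9 CPM in POP of dP2, against 452, 437 and 355 CPM in NPIP of dP2. In dP1 it had 0.125, 0.659 and 0.245 CPM in POP, against 159, 64.8 and 95.4 CPM in NPIP, and in pP 0.129, 0.867 and 0.547 CPM in POP, against 85.1, 13.7 and 30.2 CPM in NPIP. POP was below NPIP in every set without overlap, and POP kept 8.99% in dP2, 0.322% in dP1 and 1.20% in pP. The effect in dP2 minus that in dP1 was 4.81 ± 0.93 on the log2 scale (FDR = 0.0210). With the replicate number as a block the FDR was 0.0344. The FDR was 0.0551 to 0.0683 without dP1 POP replicate 1, without dP1 POP replicate 3 or without dP1 NPIP replicate 1, and the count of calls was then 0 each time. The 3 POP libraries of dP1 held 9 reads of this gene in all.

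DCAR_003788 belongs to a run of genes of equal length. DCAR_003787, DCAR_003788 and DCAR_003790 have neighbouring ID numbers and the same coding length of 489 bases, and all 3 are among the 8 strongest reductions and higher in NPIP of dP2 than in both other sets. The genes numbered between and beside them do not share the pattern. DCAR_003789 had mean levels of 2.96 CPM in POP, against 2.19 CPM in NPIP of dP2, and DCAR_003786 had 9.61 CPM in POP, against 11.0 CPM in NPIP of dP2. Counts of DCAR_003787 and DCAR_003788 were not whole in 1 library each and those of DCAR_003790 in 0, which is where RSEM shares a read between genes. DCAR_004910 and DCAR_004913 are the other pair with close numbers. DCAR_004913 had 8.30, 8.39 and 8.18 CPM in POP of dP2, against 30.2, 52.0 and 25.2 CPM in NPIP of dP2, and its coding length of 585 bases differs from the 468 bases of DCAR_004910. DCAR_004911, between them, had a mean of 17.7 CPM in POP, against 12.1 CPM in NPIP of dP2. With DCAR_001112 and DCAR_001113, the 3 runs hold 7 of the 78 genes.

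The median spread of the genes among the libraries of a group was larger than that over all genes tested. A single high NPIP library raised the group mean and so helped a gene meet both limits. The spread, and which replicate was highest, therefore follow in part from the choice. All genes tested are no matched reference here either. The median coefficient of variation over the 3 NPIP libraries was 0.44 in dP2, 0.45 in dP1 and 0.50 in pP, against 0.25, 0.24 and 0.26 over all genes tested. In POP it was 0.44, 0.52 and 0.73, against 0.24, 0.27 and 0.26, at levels that are mostly low in POP. The genes also tended to be high in the same library. In NPIP of dP1, 56 of the 78 had their highest level in replicate 3, which is 71.8%, against 43% of all genes tested. In pP, replicate 2 held the highest level of 46 genes in NPIP and of 47 genes in POP, which is 59.0% and 60.3%, against 45.4% and 41.7% of all genes. In NPIP of dP2, replicate 2 held the highest level of 41 genes, which is 52.6% against 26.9% of all genes, and replicate 3 that of 10, which is 12.8% against 32.2%. Summed over the genes, the 3 NPIP libraries of dP1 held 8657 ± 3705 CPM (SD, n = 3), against 5459 ± 1524 CPM in NPIP of pP. Without dP1 NPIP replicate 3 the mean of the other 2 libraries of dP1 was 6527 CPM, and without pP NPIP replicate 2 that of the other 2 libraries of pP was 4603 CPM. Without dP1 NPIP replicate 3 the rule finds 71 genes, 70 of them among the 78, and without pP NPIP replicate 2 it finds 73, with 71 among the 78.

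**Figure D5:**
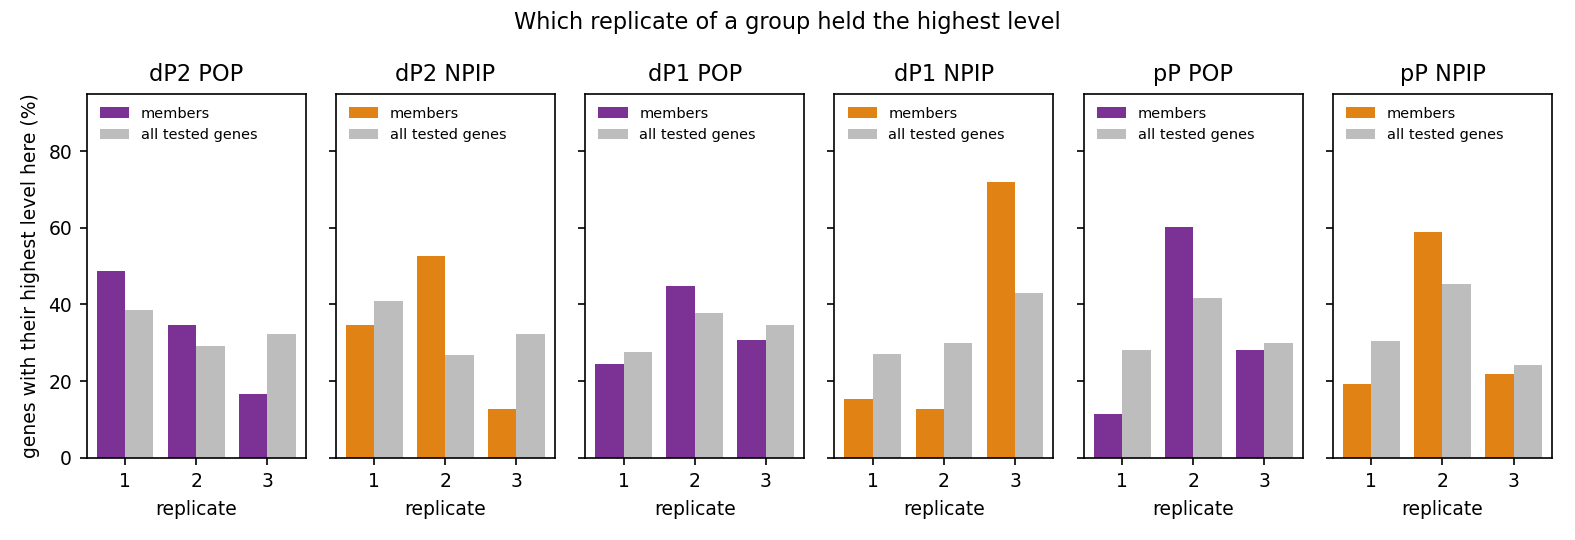
Percent of the 78 genes (coloured) and of all genes tested (grey) that had their highest CPM in replicate 1, 2 or 3, for each set and tissue. Replicate 3 of dP1 NPIP holds 71.8% of the 78 genes, against 43% of all genes.

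The 12 genes that met the same limits but are named by the study have descriptions, as best matches to proteins of other plants. The study chose them on these libraries, so they are not independent evidence of what the 78 genes are. They hold 2 APL homologs (DCAR_009660 and DCAR_019886), the MADS-box factors AGL12 (DCAR_001474) and SEPALLATA 3 (DCAR_010471), the HD-ZIP factor HAT7 (DCAR_017713), the clock factor PCL1 (DCAR_017856), the trihelix factor ASIL2 (DCAR_022336), an ethylene-responsive factor ERF2 (DCAR_025068) and a heat stress factor C-1a (DCAR_030483). The other 3 are YLS9 (DCAR_010573), a ribose-phosphate pyrophosphokinase (DCAR_010690), which makes a precursor of nucleotides, and a xyloglucan endotransglucosylase (DCAR_010780), a class of enzymes that remodel the wall. HAT7 had 8.06, 10.4 and 5.88 CPM in POP of dP2, against 49.5, 54.7 and 78.0 CPM in NPIP of dP2, and 0, 0.578 and 0.328 CPM in POP of pP, against 3.06, 13.0 and 6.89 CPM in NPIP of pP. ASIL2 had 31.9, 15.2 and 19.5 CPM in POP of dP2, against 106, 73.2 and 54.2 CPM in NPIP of dP2, and 0.903, 2.17 and 1.20 CPM in POP of pP, against 8.93, 6.75 and 2.50 CPM in NPIP of pP. Neither gene overlapped between tissues in these sets. In NPIP, 7 of the 12 were higher in dP2 than in pP and 6 were higher than in dP1, and 0 were lower in either comparison. Over all genes tested, 18.9% were called higher and 16.3% lower than in pP, and 22.4% and 18.9% than in dP1. A high NPIP level helped these 12 genes meet the limits too, so the counts follow in part from that. ASIL2 moved furthest, with 3.67 ± 0.43 over pP (FDR = 3.14e-05), and HAT7 rose by 3.01 ± 0.62 (FDR = 0.00196). In dP1 over pP 0 of the 12 were called, where 2.08% of all genes tested were called higher and 2.49% lower.

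Among the genes described in the study's tables, 68 outside the 78 fell into lists by function. Those tables were made of genes that differ between POP and NPIP in these libraries, so the counts that follow restate that choice and nothing is read from them. In dP2, 33 were higher and 11 lower in POP than in NPIP, where 8.22% of all genes were called higher and 3.66% lower. In dP1 it was 49 higher and 15 lower, where 11.5% and 7.41% were, and in pP 34 higher and 7 lower, where 4.89% and 1.35% were. Of the 58 transcription factors among them, 10 were lower in POP of dP2, 12 in dP1 and 6 in pP, and 9 of the 58 met the limits used here. The 3 APL homologs were lower in POP of dP2 and dP1, and 1 of them, DCAR_019908, was called lower in pP (log2 fold change −5.35, FDR = 0.0190). It had 1 read in the POP libraries of pP, against 58 reads in NPIP, so the size of this change is poorly known. The total of 44 calls in dP2 was 20, 22 and 22 without dP2 POP replicate 2, POP replicate 3 and NPIP replicate 2. The total of 41 in pP was 22, 12 and 24 without pP POP replicate 3, NPIP replicate 1 and NPIP replicate 3.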

How the data were processed

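POP and NPIP were dissected from 9 carrot roots, 3 in each of dP2, dP1 and pP, and sequenced as single-end libraries of 100 nt. According to the study's methods, the authors checked reads with FastQC, filtered them with Trimmomatic 0.32, and used Bowtie2 within RSEM to align and quantify them against version 1.0 of the carrot gene annotation (versions of RSEM and Bowtie2 are not given in the sources used here). The deposited expected count is RSEM's estimated count per gene, not normalized, and 7.16% to 8.83% of genes in a library had a value that was not whole. The TPM values were computed by the authors with RSEM, as transcripts per 1000000. They were used for levels between genes only. Library totals were 6918267 to 9133313 expected counts. Intervals cover counting error only.

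CPM was the expected count divided by the library total, times 1000000. The genes were chosen on the means of 3 libraries. The members, the marker and function lists and the tests were chosen with earlier results of these data known. The expected counts were rounded and fitted with edgeR 4.0.16 (R 4.3.3, quasi-likelihood test, TMM scaling, at least 1 CPM in at least 3 libraries, Benjamini-Hochberg FDR over all genes tested, threshold 0.05). A fit of all 18 libraries with 6 groups gave the differences of NPIP between sets and the differences of the POP over NPIP effect. A fit of the 6 libraries of each set gave the listed genes. Tables were handled in Python 3.11.15 with numpy 2.4.6, pandas 2.3.3 and scipy 1.17.1. The model fits were tested on simulated data. No replicates of a group agreed within sampling noise.

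The study took both tissues from each root, but the sources used here do not tie replicate numbers to roots. The number was therefore checked, and added as a block as an alternative. Same-numbered libraries correlated in their deviations from the group means with r of 0.55, 0.31 and 0.40 in dP2, 0.35, 0.44 and 0.34 in dP1, and −0.24, 0.58 and −0.09 in pP, so the numbers were taken to pair the libraries in dP2 and dP1 but not in pP. Other alternatives were DESeq2 1.42.0, other size factors, no filter, the compared groups alone, other limits of the rule, and each library left out in turn, with a filter of 2 libraries in fits of 5.

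Genes were named in the text if they were among the 8 with the highest NPIP level in TPM, the 8 with the smallest value of the largest ratio, the 4 called with the smallest p in each direction of a test between sets, next to the limits of the rule, within 3 ID numbers of another of the genes, or without a read in the POP libraries of a set. None of the genes has a description, so the 21 function lists hold only genes that the study names. Columns of effective length and FPKM were not used.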

Additional observations from a re-analysis of the deposited data

Results flagged for a closer look

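The POP over NPIP difference of DCAR_003788 differed between dP2 and dP1 by 4.81 on the log2 scale, by the test of the difference itself in edgeR. POP kept 8.99% of the NPIP mean in dP2, against 0.322% in dP1. Both ratios were bounded by the rule that chose the gene, and the dP1 value rests on 9 reads in POP. The value was 4.37 to 5.69 when each library was left out in turn, and its FDR was above 0.05 without dP1 POP replicate 1, dP1 POP replicate 3 or dP1 NPIP replicate 1.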

How the results depend on the processing

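The rule found 192 genes with POP at most 1/2 of NPIP, 53 with at most 1/4, and 49 with NPIP of at least 8 CPM. With TMM-scaled CPM it found 73, with medians 75 (61 of them among the 78), with TPM 88 (65 among the 78), and 71 to 86 when each library was left out. In NPIP of dP2 over pP, 30 to 37 genes were called higher and 2 to 5 lower without single libraries, and 2 lower in a fit of the compared groups alone. In NPIP of dP2 over dP1 it was 25 to 31 higher and 5 to 10 lower, and in dP1 over pP 0 to 4 higher and 0 lower, with 6 higher by DESeq2. Counted once, the identical pair left 3 genes lower than in pP and 7 lower than in dP1, a count chosen after seeing the data. No paired analysis was possible because NPIP libraries of different sets come from different plants. For the effects, the replicate number as a block gave 3 genes higher in dP2 minus dP1, and DESeq2 gave 3 higher and 1 lower there and 1 higher in dP2 minus pP. Single libraries left 0 to 2 higher in dP2 minus dP1, 0 to 1 in dP2 minus pP and 0 in dP1 minus pP. With numbers 1 and 3 of pP POP exchanged in the replicate block, a pairing added after seeing the data, 7 genes were higher and 2 lower in dP2 minus dP1, and 2 higher and 2 lower in dP2 minus pP. Shares over all genes are not given for the fits with a block. Of the listed genes, 43 to 62 were called in dP1, 20 to 56 in dP2 and 12 to 37 in pP without single libraries, with the filter for 5 libraries chosen after seeing the data. In pP it was 66 by DESeq2, 35 with the replicate block and 67 with the exchanged block, and the block gave 50 in dP2 and 68 in dP1. The cause of these changes was not tested. Of 20 tests of single genes, 14 held without each library, 16 held in all other settings and 0 reversed. With 3 roots per group and POP levels under 1 CPM in 8 genes in dP2, 24 in dP1 and 19 in pP, depth limits how well the size of a strong reduction is known.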
